A study of Mus musculus with 12 samples.

Results

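Regulatory T cells are CD4+ T cells that restrain the activity of other lymphocytes, and 8 genes that mark them in mice were followed here: Foxp3, Ikzf2, Ikzf4, Nrp1, Lrrc32, Gpr83, Izumo1r and Capg. They were chosen as known identity genes of this lineage, with earlier results of these data known. They were found by their symbols, which gave 8 of the 55414 gene records. The RNA came from splenic CD4+ T cells of male wild-type (WT) BALB/c mice aged 18 weeks, purified by negative selection. Mice of the LIP group carried ligature-induced periodontitis, raised with a silk thread tied around upper molars, and mice of the control (CTL) group were anaesthetized without a ligature. On day 0 the cells were collected uncultured, and on day 2 they had been cultured with the cytokine IL-2 at 10 ng/mL and with anti-TCRbeta and anti-CD28, each at 1 µg/mL by the labels, with 3 libraries for each of the 4 groups. The study's methods give other doses of IL-2 and anti-TCRbeta than the labels. For CTL 93 and LIP 96 of day 2 the treatment labels name anti-CD29 and for CTL 97 and LIP 97 of day 2 anti-CD30 in place of anti-CD28.

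The ligature is a local oral injury, so the spleen was sampled far from the lesion, and the culture received IL-2 from outside, on which regulatory T cells depend. Foxp3 is the forkhead transcription factor that specifies the lineage and holds many effector genes of other T helper cells in check. Regulatory T cells are a minority of splenic CD4+ T cells, and activated conventional T cells can also express several of their genes after stimulation. The libraries were made from the whole CD4+ population, so fewer regulatory T cells and less RNA of a gene per cell cannot be told apart in any value given here.

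The 8 genes are all protein coding. In GRCm39, Foxp3 lies on chromosome X from 7439883 to 7461484 on the + strand, and Ikzf2 on chromosome 1 from 69570373 to 69727004 on the - strand. Ikzf4 spans chromosome 10 from 128466712 to 128505227 (-), Nrp1 chromosome 8 from 129085085 to 129231082 (+), Lrrc32 chromosome 7 from 98138490 to 98151388 (+) and Capg chromosome 6 from 72514955 to 72539970 (+). Gpr83 (chromosome 9, 14771180 to 14782085, +) and Izumo1r (chromosome 9, 14797110 to 14815245, -) are neighbours that face each other, 15024 bases apart. Foxp3 shares its locus with the noncoding RNA Flicr on the same strand, which held 33 to 149 counts per library against 227 to 545 for Foxp3, and Ikzf2 overlaps the same-strand records Gm29112 (8 to 121 counts) and Gm28112 (22 to 188 counts). On the opposite strand Foxp3 overlaps Ccdc22 (123 to 231 counts), Ppp1r3f (36 to 146) and Gm36995 (6 to 100). Ikzf2 overlaps Gm29114 (15 to 88 counts) and Ikzf4 overlaps Gm26876 (0 to 8 counts) there. Whether the counting used the strand of the reads is not given in the sources used here, so reads of overlapping genes may have been divided between the records.

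The promoters of Foxp3, Capg and Izumo1r are shown because Foxp3 defines the lineage and the other pair had the largest rises with stimulation among the 8 genes. Each sequence holds the 250 bases before the start of the canonical transcript in GRCm39 with GENCODE M39, which is a C57BL/6J genome and not that of the BALB/c mice studied. The sequences run 5' to 3' on the gene's strand, from chrX:7445658-7445907 (+), chr6:72525897-72526146 (+) and chr9:14815246-14815495 (-), and capitals mark the motif matches described after them.
Foxp3: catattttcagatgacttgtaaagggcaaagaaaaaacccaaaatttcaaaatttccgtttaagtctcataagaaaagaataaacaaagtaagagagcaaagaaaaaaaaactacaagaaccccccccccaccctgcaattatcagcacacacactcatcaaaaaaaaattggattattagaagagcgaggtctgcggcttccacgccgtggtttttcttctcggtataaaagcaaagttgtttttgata
Capg: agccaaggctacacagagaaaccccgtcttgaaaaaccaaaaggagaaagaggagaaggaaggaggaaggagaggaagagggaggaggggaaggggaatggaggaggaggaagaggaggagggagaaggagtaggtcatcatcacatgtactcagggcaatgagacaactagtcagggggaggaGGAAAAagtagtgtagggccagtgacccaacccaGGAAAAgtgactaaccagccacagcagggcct
Izumo1r: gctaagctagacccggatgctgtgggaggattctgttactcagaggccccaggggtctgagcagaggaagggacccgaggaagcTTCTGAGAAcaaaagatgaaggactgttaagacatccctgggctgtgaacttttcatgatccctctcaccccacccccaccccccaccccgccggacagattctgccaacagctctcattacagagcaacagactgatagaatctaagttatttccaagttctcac

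A set of 6 short motifs of factors that act in T cells were searched on both strands of these windows. The letters were TGTTTAC (forkhead), GGAAAA (NFAT), TGACGTCA (CRE), TTCNNNGAA (STAT5), CCGGAAGT (ETS) and TGTGGT (RUNX). Of the 21770 promoters of the same length, 2.72% held the forkhead letters, 21.9% the NFAT letters, 1.69% the CRE letters, 7.7% the STAT5 letters, 2.64% the ETS letters and 13% the RUNX letters. The Capg window held the NFAT letters 2 times, 66 and 32 bases before the transcript start, the Izumo1r window held the STAT5 letters 1 time at 166 bases, and the Lrrc32 window held the NFAT letters 1 time at 208 bases. The windows of Foxp3, Ikzf2, Ikzf4, Nrp1 and Gpr83 held none of these 6 words. A match is a run of letters and not a measured binding site.

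The 12 libraries held between 6249018 and 12866718 counts, and the detection floor, set at 3 counts, stood for 0.269 to 0.452 CPM (read counts scaled for library depth by TMM normalization over the 12 libraries). All levels are on this CPM scale. The fewest counts of any of the 8 genes were 63, for Lrrc32 in CTL 94 of day 0, so every gene was measured well above the floor in every library. The labelled cell type was seen in its defining markers: the group means of Cd4 were 470 to 604 CPM and those of Cd3e 463 to 554 CPM, whereas those of Cd8a were 0.493 to 0.938 CPM. One library stood apart, LIP 90 of day 2, whose chi-square per gene was 43.5 against LIP 96 and 34.8 against LIP 97, with 10.8 between LIP 96 and LIP 97. Tests that use the LIP libraries of day 2 are therefore also given without it where it changes a call or the size of a difference. The labels number the libraries but do not say whether they came from separate mice, so p-values measure the spread between these libraries.

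Compared per kilobase of canonical transcript, which is needed to rank genes of different length, the same pair of genes led in all 4 groups. Izumo1r was the highest at 43.3 ± 5.10 CPM per kb in CTL cells on day 0 (SD, n = 3), followed by Capg at 27.5 ± 4.31, Ikzf2 at 18.2 ± 4.27 and Foxp3 at 15.2 ± 2.45. Gpr83 stood at 12.9 ± 2.45 CPM per kb and Nrp1 at 11.0 ± 3.59, and the lowest levels were those of Ikzf4 (4.26 ± 0.968) and Lrrc32 (2.16 ± 0.581). The ranges of mean ± SD overlapped for the neighbours Ikzf2 and Foxp3, Foxp3 and Gpr83, and Gpr83 and Nrp1, so their order was not resolved. The order was the same in LIP cells on day 0, where among neighbours the ranges of Foxp3 (17.0 ± 2.05) and Gpr83 (15.1 ± 0.686) overlapped.

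After stimulation the order opened into a wide gap. In CTL cells on day 2, Izumo1r reached 157 ± 17.6 and Capg 121 ± 14.7 CPM per kb, while the next gene, Gpr83, stood at 14.1 ± 1.06. Ikzf2 (12.2 ± 1.11) and Foxp3 (10.6 ± 0.928) followed, then Ikzf4 (5.64 ± 1.03), Nrp1 (4.31 ± 0.952) and Lrrc32 (4.08 ± 0.385), with overlapping ranges from Gpr83 to Foxp3 and from Ikzf4 to Lrrc32. In LIP cells on day 2, Nrp1 was the lowest of the 8 genes at 2.07 ± 0.667 CPM per kb, below Lrrc32 at 3.47 ± 0.621. The ranges of Ikzf2 (8.96 ± 0.888) and Foxp3 (7.87 ± 0.520), and of Foxp3 and Ikzf4 (6.30 ± 1.09), overlapped there.

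**Figure D1:**
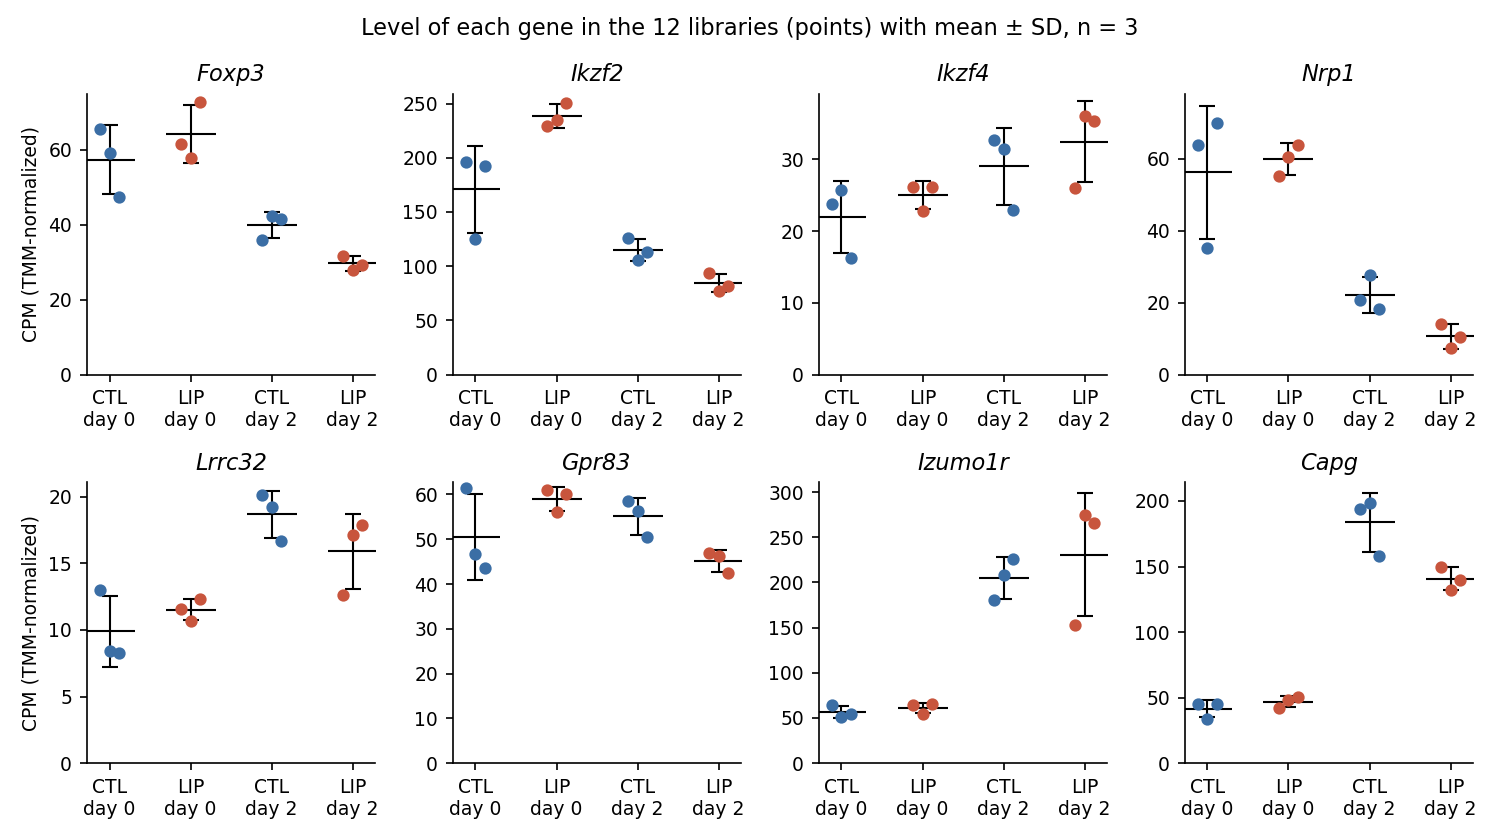
Each panel plots 1 gene, with TMM-normalized CPM on the vertical axis and the 4 groups on the horizontal axis. Points are libraries, horizontal lines the mean and whiskers the SD (n = 3). Capg and Izumo1r are higher on day 2 in both groups, and Nrp1 falls from a mean of 59.8 to 10.6 CPM in the LIP group.

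Foxp3, the lineage factor, stood on day 0 at 65.5, 59.2 and 47.4 CPM in CTL 88, 89 and 94 and at 61.6, 58.0 and 72.8 CPM in LIP 92, 93 and 94. On day 2 it stood at 35.9, 42.3 and 41.7 CPM in CTL 92, 93 and 97 and at 31.8, 27.9 and 29.4 CPM in LIP 90, 96 and 97. The groups overlapped on day 0, whereas on day 2 every LIP library lay below every CTL library and all day 2 libraries lay below all day 0 libraries. Ikzf2, which encodes Helios, a zinc finger factor of the Ikaros family that is abundant in thymus-derived regulatory T cells, stood on day 0 at 196, 125 and 192 CPM in CTL 88, 89 and 94 and at 230, 235 and 251 CPM in LIP 92, 93 and 94. On day 2 Ikzf2 was counted at 126, 106 and 113 CPM in CTL 92, 93 and 97 and at 93.6, 77.4 and 81.9 CPM in LIP 90, 96 and 97. The Ikzf2 values of LIP lay above those of CTL in all libraries of day 0 and below them in all libraries of day 2, and 2.38% of the 12946 genes tested on both days lay apart in opposite directions on the days. Ikzf4, which encodes Eos, a family member known to act with Foxp3 in gene repression, ranged from 16.3 to 26.2 CPM on day 0 and from 22.9 to 36.0 CPM on day 2. Its groups overlapped on both days.

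Nrp1 encodes neuropilin-1, a coreceptor for semaphorins and VEGF that is displayed on thymus-derived regulatory T cells of mice. It stood on day 0 at 63.7, 35.3 and 69.9 CPM in CTL 88, 89 and 94 and at 55.1, 60.5 and 63.9 CPM in LIP 92, 93 and 94. On day 2 it stood at 20.6, 27.6 and 18.2 CPM in CTL 92, 93 and 97 and at 14.2, 7.30 and 10.5 CPM in LIP 90, 96 and 97. CTL 89 was low on day 0 and LIP 96 on day 2, and on day 2 the groups did not overlap. Lrrc32 encodes GARP, which holds latent TGF-beta on the surface of activated regulatory T cells, and ranged from 8.29 to 13.0 CPM in the 6 libraries of day 0 and from 12.6 to 20.1 CPM in the 6 of day 2.

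Gpr83, a G protein-coupled receptor gene enriched in regulatory T cells, stood on day 2 at 58.5, 56.3 and 50.5 CPM in CTL 92, 93 and 97 and at 47.0, 46.2 and 42.4 CPM in LIP 90, 96 and 97. The day 2 groups did not overlap, although the gap between LIP 90 and CTL 97 was small, and on day 0 all 6 libraries lay between 43.5 and 61.5 CPM. Izumo1r encodes folate receptor 4, a surface protein of regulatory and some activated T cells. It stood on day 0 between 51.2 and 65.1 CPM in all 6 libraries, and on day 2 at 180, 209 and 226 CPM in CTL 92, 93 and 97 and at 153, 275 and 265 CPM in LIP 90, 96 and 97. LIP 90 was the lowest and LIP 96 and 97 the highest of the 6 libraries of day 2. Capg, an actin-capping protein of the gelsolin family, stood between 34.1 and 50.4 CPM on day 0, and on day 2 at 194, 199 and 158 CPM in CTL 92, 93 and 97 and at 150, 132 and 140 CPM in LIP 90, 96 and 97. The day 2 groups of Capg did not overlap.

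The spread between libraries was unequal. On day 0 the coefficient of variation of the 8 genes ran from 11.8% (Izumo1r) to 32.8% (Nrp1) in CTL and from 4.55% (Gpr83 and Ikzf2) to 12.1% (Foxp3) in LIP. On day 2 it ran from 7.49% (Gpr83) to 22.1% (Nrp1) in CTL and from 5.48% (Gpr83) to 32.2% (Nrp1) in LIP.

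Whether periodontitis alone moved these genes was asked on day 0. All 8 genes had a higher mean in LIP than in CTL cells, with log2 fold changes from 0.10 to 0.49 and a median of 0.19, beside a median of 0.01 over all genes tested. By edgeR (quasi-likelihood test, p adjusted after Benjamini-Hochberg over 14064 genes) 0 of the 8 passed an adjusted p of 0.05, where 0.427% of all genes were called. DESeq2, which gave 7 of the 8 an adjusted p, called 0 of them and 3.07% of the 6702 genes it gave an adjusted p. Ikzf2 came nearest, with a mean of 238 ± 10.9 CPM in LIP and 171 ± 40.2 CPM in CTL (SD, n = 3) and a log2 fold change of 0.49 (SE 0.14, adjusted p = 0.162). It was the 1 gene of the 8 with an unadjusted p under 0.05, which held in the same direction for 6.67% of all genes, and the 1 gene with every LIP library above every CTL library, as held for 9.26%. For Foxp3 the log2 fold change was 0.17 (SE 0.12, edgeR adjusted p = 0.571), and for Nrp1 it was 0.10 (SE 0.19, edgeR adjusted p = 0.853). Without CTL 94, Ikzf2 was called at a log2 fold change of 0.58 (edgeR adjusted p = 0.0293), where 4.59% of all genes were called, and the values of Foxp3 and Ikzf4 shrank to 0.05 and 0.02. Without LIP 94 of day 0 the value of Foxp3 was 0.07. Without CTL 89 the value of Ikzf2 was 0.30 (edgeR adjusted p = 0.0866) and that of Nrp1 turned to -0.16, so that 7 of the 8 were above 0.

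Receptors and effector molecules of regulatory T cells were read on day 0 from a list of 24 genes, of which 21 were tested. Of these, 20 had a log2 fold change above 0, with a median of 0.34. An unadjusted p under 0.05 with a higher value in LIP was found for 3, against 6.67% of all genes, and 0 had an adjusted p under 0.05. The summed level of the list was low in CTL 89 (533 CPM, against 817 and 856 CPM in CTL 88 and 94 and 782 to 944 CPM in LIP), and without CTL 89 the median was 0.08, with 16 genes above 0 and 5 below. Il2ra, which encodes the high-affinity IL-2 receptor chain CD25, stood at 103 ± 3.05 CPM in LIP and 82.4 ± 7.76 CPM in CTL (log2 fold change 0.34, SE 0.08, edgeR adjusted p = 0.112). Il2rb, a shared receptor chain of IL-2 and IL-15, had a log2 fold change of 0.18 (SE 0.17, edgeR adjusted p = 0.682) that turned to -0.04 without CTL 89. In the other direction, 26 of 32 factors known to act with or on Foxp3 had values below 0, with a median of -0.07 and 0 called.

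Genes that Foxp3 is known to repress held the 1 call among these lists on day 0, where 0.427% of all genes were called. Pde3b, the phosphodiesterase whose repression is a known feature of regulatory T cells, stood at 109 ± 10.0 CPM in LIP and 197 ± 7.42 CPM in CTL, a log2 fold change of -0.85 (SE 0.08, edgeR adjusted p = 0.000402). Every LIP library of day 0 lay between 98.7 and 119 CPM and every CTL library between 189 and 203 CPM. Of the 11 genes of this list that were tested, 8 had values below 0 and 3 above, with a median of -0.15. On day 2 Pde3b stood at 120 ± 3.72 CPM in LIP and 131 ± 2.54 CPM in CTL (log2 fold change -0.14, edgeR adjusted p = 0.526).

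After stimulation the direction of the group values was another. On day 2, 6 of the 8 genes had a lower mean in LIP than in CTL cells, with a median log2 fold change of -0.35 beside -0.01 over all genes tested. With all 6 libraries, 0 of the 8 genes had an adjusted p under 0.05 in edgeR's quasi-likelihood test, where 0% of the 14041 genes were called and 2322 had an unadjusted p under 0.05. DESeq2 called 1 of the 8, Nrp1, and 3.62% of the 13490 genes it gave an adjusted p. An unadjusted p under 0.05 with a lower value in LIP was found for 5 of the 8 genes, Nrp1, Ikzf2, Foxp3, Capg and Gpr83, against 8.2% of all genes. In the same 5 genes every LIP library lay below every CTL library, against 10.5% of all genes.

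Nrp1 had the largest difference of the 8 genes, from 22.1 ± 4.89 CPM in CTL to 10.6 ± 3.43 CPM in LIP (SD, n = 3), a log2 fold change of -1.06 (SE 0.26, edgeR adjusted p = 0.139). For Ikzf2 the log2 fold change was -0.46 (SE 0.12, edgeR adjusted p = 0.15), for Foxp3 -0.44 (SE 0.12, edgeR adjusted p = 0.168), for Capg -0.40 (SE 0.13, edgeR adjusted p = 0.196) and for Gpr83 -0.30 (SE 0.11, edgeR adjusted p = 0.256). Lrrc32 stood at -0.25 (SE 0.18, edgeR adjusted p = 0.526). Izumo1r was the 1 surface protein gene above 0, at 0.16 (SE 0.22, edgeR adjusted p = 0.748), a value within 1 SE of 0. Ikzf4 was the other gene above 0, at 0.15 (SE 0.19, edgeR adjusted p = 0.735).

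The library that stood apart decided how many of these differences were called. Without LIP 90, 4 of the 8 genes were called, 3 lower and 1 higher in LIP, where 6.19% of the 14453 genes were called lower and 7.74% higher. Nrp1 was lower with a log2 fold change of -1.31 (edgeR adjusted p = 0.00751), Ikzf2 with -0.51 (edgeR adjusted p = 0.0213) and Foxp3 with -0.46 (edgeR adjusted p = 0.0423). Izumo1r was higher in LIP at 0.42 (edgeR adjusted p = 0.0442), while Capg (-0.42, edgeR adjusted p = 0.0596) and Gpr83 (-0.30, edgeR adjusted p = 0.138) were not called. Lrrc32 stood at -0.08 and Ikzf4 at 0.31 without LIP 90 (edgeR adjusted p = 0.773 and 0.235). For Foxp3 and Ikzf2 the size of the difference was nearly as large with LIP 90 as without it.

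**Figure D2:**
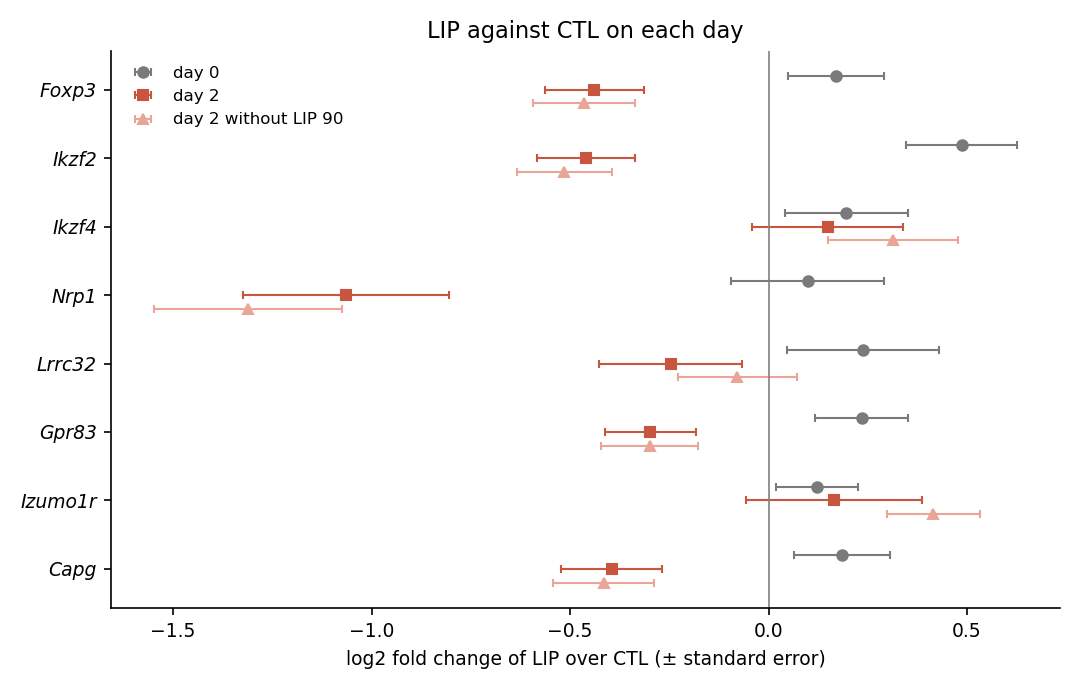
The horizontal axis gives the log2 fold change of LIP over CTL with its standard error as whiskers, for each gene on day 0 (circles), day 2 (squares) and day 2 without LIP 90 (triangles). All day 0 points lie right of 0, from 0.10 to 0.49, and on day 2 all genes except Ikzf4 and Izumo1r lie left of 0.

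Markers of other cells were read beside the day 2 difference. Over 12 myeloid markers the summed level was 22.0 to 52.3 CPM in LIP and 6.33 to 11.8 CPM in CTL on day 2, carried by Mpeg1 (27.8 ± 17.4 CPM in LIP, 5.39 ± 2.93 in CTL), while the means of Lyz2, C1qa, C1qb and C1qc were all under 0.1 CPM in both groups. Over 8 B cell markers the sum was 0.896 CPM in LIP 90 but 34.0 and 31.1 CPM in LIP 96 and 97, the libraries behind the calls made without LIP 90, and 2.64 to 20.7 CPM in CTL. Over the 2 CD8 markers it was 4.93 CPM in LIP 90, 13.2 and 9.20 CPM in LIP 96 and 97, and 4.43 to 6.33 CPM in CTL. The sums of 9 dendritic cell markers (8.60 to 15.1 and 8.96 to 12.6 CPM), 6 NK cell markers (3.67 to 10.4 and 3.38 to 6.47 CPM), 7 platelet markers (1.43 to 2.72 and 0.634 to 1.14 CPM) and 6 erythroid markers (0.777 to 1.22 and 0.740 to 2.15 CPM) reached at most 15.1 CPM in any library of day 2. The 8 endothelial markers summed to 53.5 to 74.8 CPM in LIP and 71.1 to 91.1 CPM in CTL, most of it from Pecam1, which T cells also express, and Emcn and Klra8 were at 0 in all 12 libraries. The part of the myeloid, B cell and CD8 markers in the day 2 result was not tested. On day 0 the myeloid sum was 9.65 to 16.7 CPM in LIP and 6.50 to 15.8 CPM in CTL, and the B cell sum 4.13 to 5.61 and 2.29 to 5.79 CPM. The NK sum of day 0 did not overlap, with at most 43.7 CPM in LIP and at least 48.7 CPM in CTL. Most of it came from the perforin gene Prf1 (log2 fold change -0.66, edgeR adjusted p = 0.064), while the other 3 tested NK markers had values above 0. The part of the NK markers in the day 0 values was not tested.

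Foxp3 was also set against the T cell receptor genes Cd3d, Cd3e, Cd3g, Cd247 and Trac of the same library, a ratio that needs no scaling. On day 0 it stood at 531, 459 and 398 Foxp3 counts per 10000 CD3 counts in CTL 88, 89 and 94 and at 518, 519 and 616 in LIP 92, 93 and 94. On day 2 it stood at 256, 273 and 269 in CTL 92, 93 and 97 and at 226, 165 and 190 in LIP 90, 96 and 97. Per CD3 count the groups overlapped on day 0 and did not on day 2. The mean of LIP was 1.19 times that of CTL on day 0 (551 ± 56.3 against 462 ± 66.6, SD, n = 3, two-sided exact permutation p = 0.3) and 0.728 times on day 2 (194 ± 30.8 against 266 ± 8.68, exact permutation p = 0.1). The smallest p that 3 against 3 libraries can give is 0.1. Without LIP 90 the day 2 ratio was 0.667. Per Cd4 count the ratios were 1.21 (exact permutation p = 0.1) and 0.858 (exact permutation p = 0.2, n = 3).

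**Figure D3:**
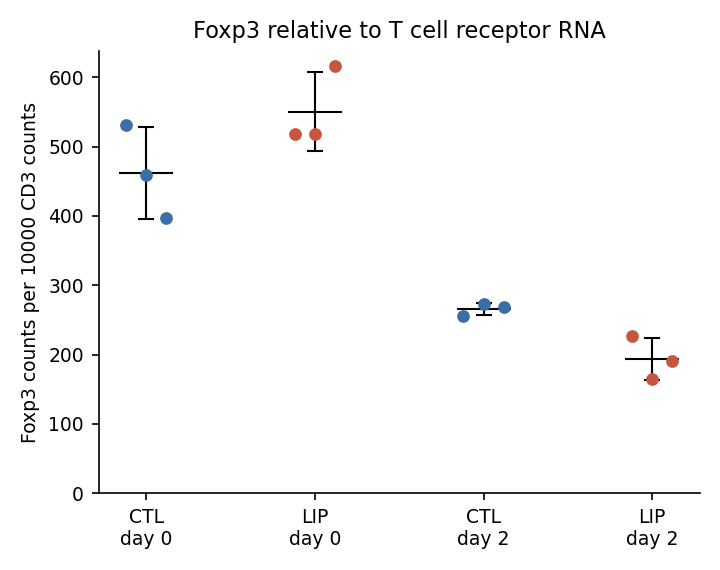
The vertical axis gives Foxp3 counts per 10000 counts of 5 CD3 and T cell receptor genes, for each library (points) with the mean and SD of the group (n = 3). The 3 LIP libraries of day 2 sit between 165 and 226, below the 3 CTL libraries at 256 to 273.

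The other genes of the pathway were read from lists on day 2. Of 22 tested receptors and effector molecules, 14 had a higher and 8 a lower mean in LIP, with a median of 0.06 and 0 called. Il2ra stood at a log2 fold change of 0.07 (SE 0.16, edgeR adjusted p = 0.864) and Il2rb at 0.12 (SE 0.13, edgeR adjusted p = 0.707). Penk, an enkephalin precursor gene named here after its values were seen, stood at 4.99 ± 2.34 CPM in LIP and 21.1 ± 11.1 CPM in CTL (-2.09, edgeR adjusted p = 0.131, and -2.52 with edgeR adjusted p = 0.0125 without LIP 90). Of 32 factors that act with or on Foxp3, 17 were below 0 and 15 above with 0 called, among them Satb1 at 0.01 and Ets1 at 0.14. Of 13 genes that Foxp3 is known to repress, 8 were below 0 and 5 above with 0 called. An unadjusted p under 0.05 was found for 3 in each direction, against 8.2% of all genes lower and 2322 of 14041 in either direction. Of genes named after their values were seen, Il2, the IL-2 gene, stood at 22.7 ± 20.1 CPM in LIP and 62.6 ± 6.84 CPM in CTL (-1.47, edgeR adjusted p = 0.24, and -2.46 with adjusted p = 0.0023 without LIP 90), Ifng at -1.10 (edgeR adjusted p = 0.248) and Il7r, the IL-7 receptor gene, at 0.62 (edgeR adjusted p = 0.249). Other cytokine genes of this list, also named after their values were seen, had higher means in LIP. These were Il4 (17.2 ± 9.76 CPM in LIP, 8.53 ± 1.06 in CTL), Il21 (136 ± 146 and 35.9 ± 27.4) and Tnf (75.7 ± 4.06 and 65.5 ± 5.78). Without LIP 90, edgeR called 3 lower and 3 higher among the receptors and effectors, 3 lower and 3 higher among the factors, and 3 lower and 2 higher among the repressed genes, beside 6.19% lower and 7.74% higher over all genes. The repressed genes share Satb1 and Tcf7 with the factors.

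Relatives and partners of single genes gave 0 calls on day 2 with all libraries. Among the 5 genes of the Ikaros family, which include Ikzf2 and Ikzf4, 3 were above 0, with Ikzf1 at -0.17 and Ikzf3 at 0.38. Of 11 tested ligands, plexins and other partners of Nrp1, 5 were below 0 and 6 above, with 3 and 2 at an unadjusted p under 0.05. Of all 14041 genes, 8.2% were lower at an unadjusted p under 0.05, and 2322 passed it in either direction. Plexin A1 (Plxna1), a signalling partner of neuropilin-1 named after its values were seen, stood at 43.2 ± 14.5 CPM in LIP and 86.6 ± 10.8 CPM in CTL (-1.01, edgeR adjusted p = 0.12, and -1.30 with adjusted p = 0.000604 without LIP 90). Of 10 tested genes of TGF-beta and its activation, in which Lrrc32 acts, 8 were below 0, with Tgfb1 at -0.12 (edgeR adjusted p = 0.736) and Tgfbr2 at 0.08. Of 7 tested relatives of Capg among actin-capping proteins, 5 were below 0, with Capza1 at 0.11 and Capzb at -0.14. The folate receptor genes Folr1 and Folr2, relatives of Izumo1r, had too few counts to be tested, with Folr2 at 0 in all libraries.

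Stimulation split the identity genes into those that rose and those that fell. In CTL cells 6 of the 8 genes were called between day 0 and day 2, 3 higher and 3 lower, where 69% of the 15475 genes were called and 33.7% were called lower, so a call alone does not set these genes apart. In LIP cells 7 of the 8 were called, 3 higher and 4 lower, where 71.8% of all genes were called and 35.2% were called lower. Without LIP 90 all 8 were called in LIP, where 69.3% of all genes were, since Ikzf4 was then also called (0.52, edgeR adjusted p = 0.0183). Within a group the libraries of the 2 days carry no shared numbers, and day cannot be told apart from whatever else differed between uncultured and cultured cells. The other scalings moved the median log2 fold change of all genes from -0.02 to as low as -0.31 in CTL and from 0.00 to as low as -0.41 in LIP, so small differences between the days depend on the scaling.

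Capg rose the most of the 8 genes in CTL, from 41.6 ± 6.52 to 184 ± 22.3 CPM (log2 fold change 2.14, SE 0.13, edgeR adjusted p = 1.27e-08), and in LIP it rose from 47.0 ± 4.19 to 141 ± 8.70 CPM (1.58, SE 0.13, edgeR adjusted p = 1.57e-07). Izumo1r rose by 1.86 on the log2 scale in CTL (SE 0.19, edgeR adjusted p = 1.42e-06) and by 1.91 in LIP (SE 0.19, edgeR adjusted p = 9.2e-07). Lrrc32 rose by 0.92 in CTL (SE 0.19, edgeR adjusted p = 0.00067) and by 0.46 in LIP (SE 0.19, edgeR adjusted p = 0.0423), and the call in LIP was lost with library totals only (0.10, edgeR adjusted p = 0.652). These 3 genes had every library of day 2 above every library of day 0 within each group, as held for 37.2% of all genes in CTL and 37.4% in LIP.

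The transcription factors Foxp3 and Ikzf2 and the coreceptor gene Nrp1 fell in both groups. Nrp1 fell from 56.3 ± 18.5 to 22.1 ± 4.89 CPM in CTL (log2 fold change -1.35, SE 0.25, edgeR adjusted p = 0.000337) and from 59.8 ± 4.41 to 10.6 ± 3.43 CPM in LIP (-2.49, SE 0.27, edgeR adjusted p = 2.02e-06). Foxp3 changed by -0.52 in CTL (SE 0.13, edgeR adjusted p = 0.00342) and -1.11 in LIP (SE 0.14, edgeR adjusted p = 6.52e-06). Ikzf2 changed by -0.57 in CTL (SE 0.15, edgeR adjusted p = 0.00374), where CTL 89 of day 0 at 125 CPM lay among the day 2 libraries, and by -1.50 in LIP (SE 0.15, edgeR adjusted p = 1.06e-06). Gpr83 fell in LIP (-0.39, SE 0.13, edgeR adjusted p = 0.0137) and stood at 0.13 in CTL (SE 0.13, edgeR adjusted p = 0.382), a value that turned to -0.16 with upper-quartile factors and was called at 0.31 without CTL 88 of day 0 (edgeR adjusted p = 0.0291). With all libraries Ikzf4 was called in neither group, at 0.40 in CTL (edgeR adjusted p = 0.0719) and 0.37 in LIP (edgeR adjusted p = 0.0884), and the LIP value was -0.05 when scaled to CD3 counts. Markers of other cells changed in both directions between the days. The mean NK sum went from 54.8 to 4.88 CPM in CTL and from 41.7 to 6.46 CPM in LIP. Prf1 made up most of this fall, from 45.9 to 3.68 CPM in CTL and from 28.9 to 4.04 CPM in LIP. The mean B cell sum rose from 4.55 to 8.73 CPM in CTL and from 4.796 to 21.99 CPM in LIP. It was uneven on day 2, with 20.7 CPM in CTL 97 and 0.896 CPM in LIP 90. The mean myeloid sum rose from 13.3 to 32.2 CPM in LIP and went from 10.1 to 9.84 CPM in CTL. The mean dendritic cell sum fell from 55.8 to 10.2 CPM in CTL and from 59.6 to 12.4 CPM in LIP. In CTL on day 0, Ccr9 (33.6 CPM) and Zbtb46 (20.2 CPM) made up most of the dendritic cell sum, while Itgax, Flt3, Clec9a, Siglech, Cd209a and Batf3 were each under 0.4 CPM in the group means of day 0. The part of these markers in the day values was not tested.

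**Figure D4:**
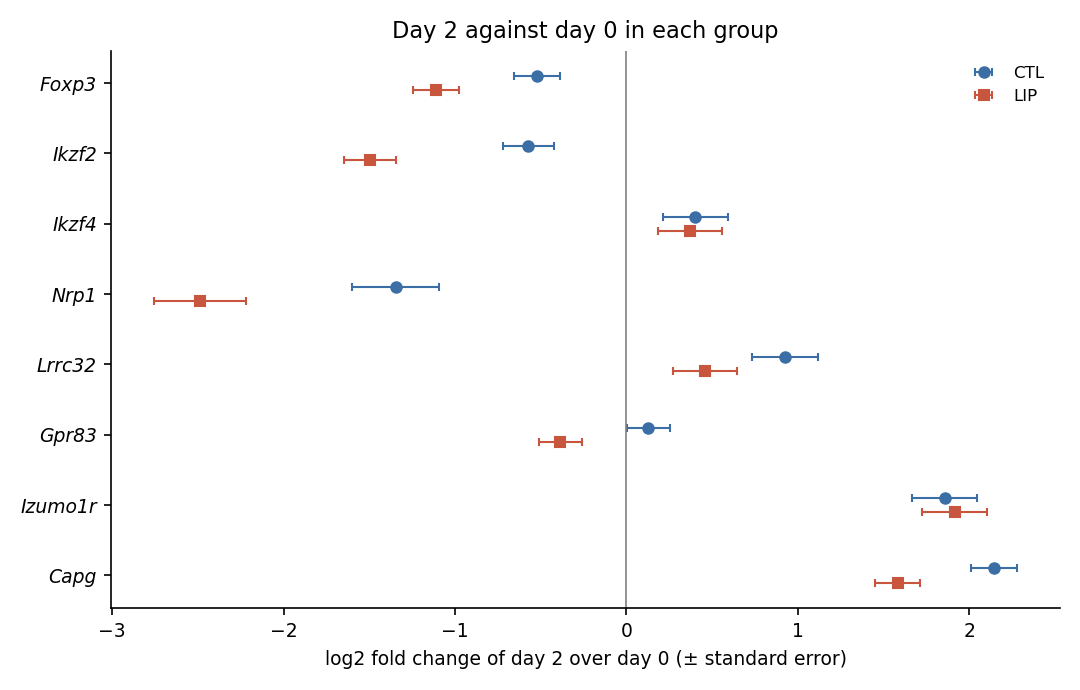
The horizontal axis gives the log2 fold change of day 2 over day 0 with its standard error as whiskers, in CTL (circles) and LIP (squares). Capg, Izumo1r and Lrrc32 lie right of 0 and Nrp1, Ikzf2 and Foxp3 left of 0 in both groups, with Nrp1 at -1.35 in CTL and -2.49 in LIP.

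The lists held calls in both directions, to be read against the 69% of all genes called in CTL and the 71.8% in LIP. Of 23 tested receptors and effector molecules, 15 rose and 3 fell in CTL (median 2.29) and 14 rose and 5 fell in LIP (median 2.01). Il2ra rose by 4.30 on the log2 scale in CTL (edgeR adjusted p = 1.69e-10), Tnfrsf4, which encodes the costimulatory receptor OX40, by 4.58 (2.81e-10), Tnfrsf9, which encodes 4-1BB, by 5.45 (5.24e-10) and Tnfrsf18, which encodes GITR, by 2.67 (2.27e-09). Thus several surface molecules used to recognise regulatory T cells were higher on day 2 while Foxp3 and Ikzf2 were lower. Of the 32 factors that act with or on Foxp3, 16 rose and 8 fell in CTL and 17 rose and 8 fell in LIP. Irf4 rose by 6.06 in CTL (edgeR adjusted p = 1.69e-10) and 6.19 in LIP (1.29e-10), and Tcf7 changed by -1.71 in CTL (2.07e-08) and -1.99 in LIP (5.28e-09). Of the 13 genes that Foxp3 represses, 7 rose and 5 fell in CTL and 6 rose and 4 fell in LIP, with Il7r at -3.21 and -2.48, Igfbp4 at -2.51 and -2.81 and Tnf at 1.80 and 1.74.

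Partners of single identity genes were also called in both directions, beside the same 69% and 71.8% of all genes. Of 11 tested partners of Nrp1, 6 rose and 2 fell in each group. Vegfa, a ligand of neuropilin-1 and called higher in both, had 1 to 6 counts in each library of day 0, too few for a fold, and stood at 18.9 ± 1.49 CPM in CTL and 39.1 ± 7.72 CPM in LIP on day 2. Sema4a, a semaphorin gene, changed by -2.22 in CTL and -2.45 in LIP. Of 10 genes of TGF-beta and its activation, 6 rose and 2 fell in CTL and 4 rose and 3 fell in LIP, with Tgfb1 at 1.45 and 1.48 and Tgfbr2, its receptor gene, at -1.79 and -1.50. Among the Ikaros family, Ikzf3 rose (1.59 in CTL and 1.84 in LIP) while Ikzf1 fell (-0.45 and -0.57). Of the 9 relatives of Capg, 4 rose and 1 fell in CTL and 6 rose and 1 fell in LIP, and Capzb, a capping protein subunit, rose by 1.19 and 1.23.

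Whether the LIP effect differed between the days was tested as the interaction of group and day on all 12 libraries. The log2 value was below 0 for 7 of the 8 genes, with a median of -0.54 beside 0.00 over all genes tested, and 0 of the 8 passed an adjusted p of 0.05 in edgeR's quasi-likelihood test, where 0.0517% of all genes were called. DESeq2 called 1 of the 8, Ikzf2, and 4.36% of the 12174 genes it gave an adjusted p. At an unadjusted p under 0.05, 5 of the 8 genes were below 0, against 7.28% of all genes. The values were -1.14 for Nrp1 (SE 0.36, edgeR adjusted p = 0.151), -0.93 for Ikzf2 (SE 0.21, edgeR adjusted p = 0.0871) and -0.59 for Foxp3 (SE 0.19, edgeR adjusted p = 0.153). Capg stood at -0.56 (SE 0.18, edgeR adjusted p = 0.155) and Gpr83 at -0.51 (SE 0.18, edgeR adjusted p = 0.181). Lrrc32 stood at -0.47, Ikzf4 at -0.03 and Izumo1r at 0.06, and without LIP 90 these stood at -0.33, 0.11 and 0.28. With library totals only, Izumo1r stood at -0.11. Without LIP 90, 4 of the 8 genes were called, all below 0, where 4.45% of the 15823 genes were called below 0, and they were Ikzf2 (-1.01, edgeR adjusted p = 0.00806), Nrp1 (-1.42, edgeR adjusted p = 0.0219), Capg (-0.61, edgeR adjusted p = 0.0471) and Foxp3 (-0.64, edgeR adjusted p = 0.0499). The interaction rests on the same libraries as the comparisons of each day and adds no further measurement.

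The genes whose pattern across libraries was most like that of Foxp3 were sought among 12945 genes tested on both days, by the smaller of the Pearson r of log2 CPM over the 6 libraries of day 0 and over the 6 of day 2. The closest was Septin1 (r of 0.931 on day 0 and 0.954 on day 2), followed by Ephb6 (0.905 and 0.946), Apex2 (0.931 and 0.901), Cad (0.925 and 0.867) and Slc38a10 (0.860 and 0.942). Of the other identity genes, Gpr83 came closest at rank 60 (0.808 and 0.740). On day 2 Nrp1 had an r of 0.912 with Foxp3 and Ikzf2 of 0.806, but on day 0 these were -0.07 and 0.31. The libraries of a day share their group difference and their normalization, so these values describe the 12 libraries only.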

How the data were processed

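RNA was measured in 12 directional libraries made after rRNA depletion, placed in their groups by the sample titles. The authors trimmed reads with Trimmomatic after FastQC 0.11.9, mapped them to GRCm39 with HISAT2, estimated expression with RSEM 1.3.0 and Bowtie2, and deposited expected counts per gene without normalization. The annotation release is not given in the sources used here. The authors also deposited tables of each day, whose fold changes and p-values were not used, and from which symbols only were read. They also hold 2 columns of LIP libraries of day 2 without a labelled sample, which were left out.

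Counts were rounded, filtered with filterByExpr, TMM-normalized and tested with edgeR 4.0.16 (quasi-likelihood test, Benjamini-Hochberg adjustment over all genes, R 4.3.3), each day alone for LIP against CTL and all 12 libraries together for the days and the interaction. A call is an adjusted p under 0.05. Foxp3 per CD3 count was compared by a two-sided exact permutation test. Log2 CPM for correlations used a prior count of 2. Scripts were tested on simulated data, where the share of false calls in the day 0 comparison lay above the nominal one. The libraries held 6249018 to 12866718 counts, and the floor of 3 counts covers counting error only. Alternatives were other scalings, DESeq2 1.42.0, other filters, other samples in the fit and leaving out each library. For DESeq2 the share called is of the genes it gave an adjusted p.

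The 8 genes and all lists were chosen with earlier results of these data known. From each list the text names up to 4 genes with the smallest adjusted p under 0.05, or else up to 2 with the highest level, not all of which are printed, and other genes are said to be named after their values were seen. Positions and promoters came from GRCm39 with GENCODE M39.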

Additional observations from a re-analysis of the deposited data

Results flagged for a closer look

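Ikzf2 was the 1 gene of the 8 whose groups lay apart in opposite directions on the 2 days, with every LIP library above every CTL library on day 0 and below on day 2. Of all genes tested on both days, 2.38% lay apart in opposite directions. The difference between the days in its log2 fold change of LIP over CTL was -0.93 (SE 0.21), and the interaction test of edgeR did not call it (adjusted p = 0.0871). Without LIP 90 edgeR called it (adjusted p = 0.00806), where 4.45% of all genes were called below 0. With all libraries DESeq2 also called it, and 4.36% of the genes it gave an adjusted p. Its means were 238 CPM in LIP and 171 CPM in CTL on day 0, and 84.3 and 115 CPM on day 2.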

How the results depend on the processing

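Calls among the 8 genes changed with the processing in all 5 comparisons. For LIP against CTL on day 0 the count of genes called was 1 in place of 0 with no filter on low counts (2.52% of all genes called), and 0 to 1 when a library was left out (0.0904% to 4.59%). The gene called was Ikzf2 each time, with an edgeR adjusted p of 5.73e-07 with no filter. On day 2 it was 1 with DESeq2 (3.62%), with no filter (2.57%) and with all 12 libraries in one fit (5.01%), each time Nrp1, and 0 to 4 when a library was left out (0% to 13.9%), while the genes lower at an unadjusted p under 0.05 numbered 3 to 5 (4.34% to 14.2%). For the interaction it was 1 with library totals only (0.627%), 1 with DESeq2 (4.36%) and 2 with no filter (2.89%), and 0 to 4 when a library was left out (0.00626% to 10.1%). The count of 4 came without LIP 90. The value of Gpr83 for the days in CTL was -0.16 with upper-quartile factors, -0.0592 with library totals only and -0.15 scaled to CD3 counts, and that of Ikzf4 in LIP was -0.0455 scaled to CD3 counts. The interaction of Izumo1r was -0.11 with library totals only and -0.0869 scaled to CD3 counts. With a library left out, Nrp1 on day 0 ranged from -0.16 to 0.29, and the interaction from -0.0834 to 0.28 for Izumo1r and from -0.17 to 0.13 for Ikzf4. The cause was not tested. The rise of Lrrc32 in LIP was not called with upper-quartile factors, library totals only, CD3 scaling, at least 10 counts in every library or without LIP 92, 93 or 94 of day 0 or LIP 96 or 97 of day 2, and the fall of Gpr83 in LIP was not called without LIP 97 (adjusted p = 0.0521). Ikzf4 was called between the days with no filter on low counts, in CTL (adjusted p = 0.0218) and in LIP (adjusted p = 0.0309), and when some libraries were left out, and Gpr83 in CTL was called without CTL 88 of day 0. The number of the 8 called was 6 to 7 in CTL and 5 to 8 in LIP over all alternatives, where 40.2% to 71.6% and 41.9% to 73.8% of all genes were called. With 3 libraries a group, differences of the size seen on day 0 were near the spread between libraries. No paired analysis was possible because LIP and CTL share 1 library number on each day and the days share none within a group.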

Other observations

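A gene outside the 8 that bears on TGF-beta signalling, in which Lrrc32 acts, is given here after its values were seen. On day 2 Eng, which encodes the TGF-beta coreceptor endoglin and was on the list of endothelial markers, stood at 3.09 ± 0.485 CPM in LIP and 13.1 ± 1.31 CPM in CTL (SD, n = 3). Its log2 fold change was -2.08 (SE 0.21, edgeR adjusted p = 0.0568), and 0.0568 was the smallest adjusted p of the 14041 genes tested. Without LIP 90 its edgeR adjusted p was 0.000895, where 13.9% of all genes were called. On day 0 it stood at 1.19 ± 0.651 CPM in LIP and 1.21 ± 0.254 CPM in CTL.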
